A study of Mus musculus with 12 samples.

Results

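Eed is a core subunit of Polycomb repressive complex 2 (PRC2), and its loss was examined in growing oocytes of mouse ovaries at postnatal day 7. The 4 libraries of this comparison, of 12 in the series, were chosen by their labels: 2 of growing oocytes with the genotype Eed F/+; Ddx4-Cre (called control) and 2 with Eed F/-; Ddx4-Cre (called cKO). All 4 carry Ddx4-Cre, a recombinase driven by a germ-cell gene, so control oocytes keep the non-floxed Eed allele and cKO oocytes keep none after recombination. The labels do not say whether replicate libraries came from separate animals or how many oocytes each held, and the p-values therefore measure the spread between these libraries, which may be technical. Genes were selected by level: of 55385 gene models, 12252 reached at least 1 TPM (a share of transcripts corrected for their length) in at least 2 of the 4 libraries. Of these, 11177 reached it in both controls, 271 in both cKO libraries only and 74 in both controls only. Values were compared as log2(TPM + 1), so a fold change here is on that scale and understates the change of genes with few reads.

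The other groups used beside these were non-growing oocytes at postnatal day 6 with the same genotypes (2 control and 2 cKO libraries), and growing oocytes at postnatal day 7 in which the other Polycomb complex, PRC1, was targeted. The PRC1 libraries are labelled Ring1-/-; Rnf2 F/+; Ddx4-Cre (control, 2 libraries) and Ring1-/-; Ring1 F/-; Ddx4-Cre (cKO, 2 libraries), so both lack Ring1, and the cKO label repeats Ring1 where the control label names Rnf2.

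PRC2 places methyl groups on lysine 27 of histone H3, a mark that spreads over silent promoters and helps to keep developmental and germ-cell genes off. EED is the subunit that binds the existing mark and holds the catalytic subunit EZH2 (or EZH1) in an active state. PRC1 ubiquitinates histone H2A, can read the PRC2 mark, and in variant forms reaches germ-cell promoters through DNA-binding partners instead. In oocytes PRC2 is also known for setting the noncanonical, histone-based imprints of the next generation.

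The labelled cell type was checked first. All 10 defining oocyte markers were detected, with a summed level of 12590 to 15690 TPM in the 4 libraries. Markers of other ovarian cells were low: granulosa markers summed to 8.93 and 7.87 TPM in control, against 11.2 and 16.3 TPM in cKO, stromal and theca markers to 3.70 to 4.38 TPM, and erythroid markers to 0.14 to 1.31 TPM. Endothelial markers summed to 150.4 to 167 TPM. One library stood apart. The second cKO library had 12480 gene models at 1 TPM or more, against 11747 to 12022 in the other 3, and its trimmed-mean scaling factor was 0.908 against 0.766 to 0.770. Set alone against the control mean, its median log2 change over all genes tested was 0.15, against -0.01 for the first cKO library. List medians below are therefore also given for each cKO library alone. Depth is not known, because TPM keeps none.

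Few genes passed limma's test of Eed loss in growing oocytes, with Benjamini-Hochberg adjustment at 0.05. Of 12252 genes, 19 were higher (0.155%) and 7 lower (0.0571%) in cKO, 26 in all (0.212%), and 1284 had an unadjusted p below 0.05. The level filter fixed the direction of some calls. Cd40, Mir7035, mt-Nd3, Pcna-ps2, Gm24135, Gm27597, Gm13237, Gm22190 and Gm26506 were below 1 TPM in both controls and entered through cKO. Gm27640 and Gm46432 were below 1 TPM in both cKO libraries and entered through the controls. Of the 26, 13 were protein-coding, 5 were microRNA models, 5 were pseudogenes and 6 had a total exon length under 200 bases. The protein-coding genes that rose include Cd40, an immune receptor, Mageb4, Xlr3b and Rhox2b, X-linked germ-cell genes, and Sycp3 and Mael, genes of meiosis and transposon control. Eed and Spata21 were among the 7 that fell. The median change of all genes tested was 0.08 (log2). Trimmed-mean scaling moved that median by more than 0.1, to -0.04, and split the calls into 11 higher and 9 lower, while quantile normalization gave 21 higher and 13 lower.

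The count rested on single libraries in part. It was 169 without the first cKO growing library (141 higher, 28 lower), 19 without the second, and 20 and 27 without the first or second control growing library. It was 12 without either control non-growing library and 13 without either cKO non-growing library, which enter through the shared estimate of the spread, and 11 when only the 4 growing libraries were fitted. Of the 19 called genes named here, 4 passed without every library in turn: Eed, Cd40, and the short models Mir7035 and Gm24135. In bulk libraries such as these, fewer cells of a type and less RNA per cell cannot be told apart.

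**Figure D1:**
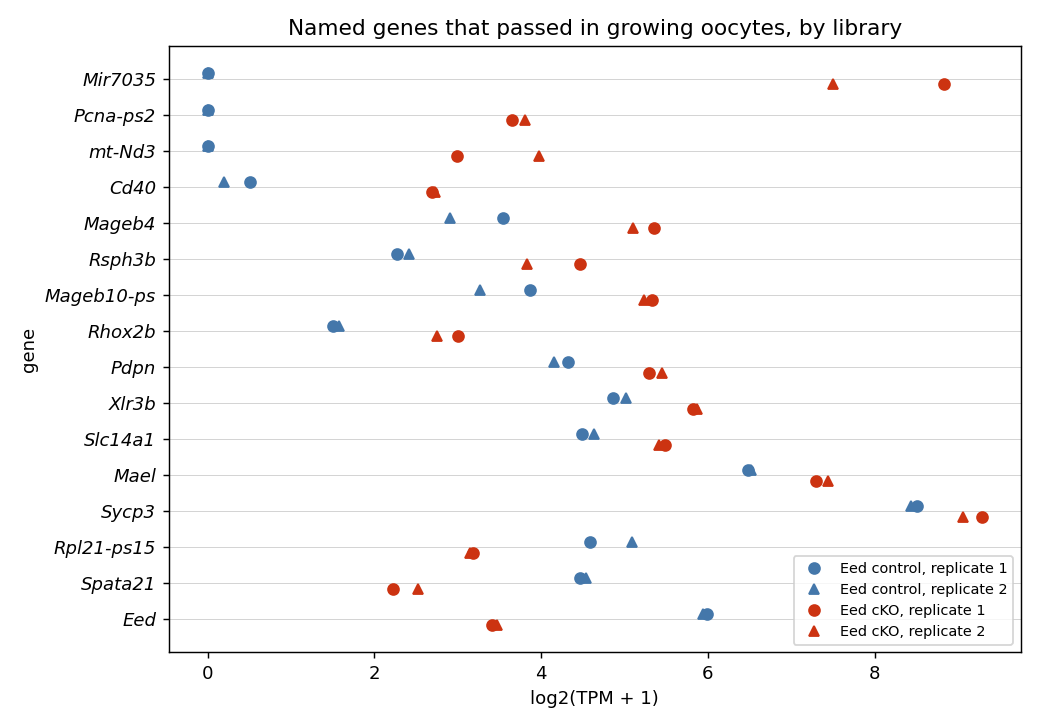
log2(TPM + 1) of the 16 called genes that have a symbol other than a predicted model, in the 2 control (blue) and 2 cKO (red) growing libraries, 1 point per library (circle for replicate 1, triangle for replicate 2). In no gene do the groups overlap, and Mir7035, Pcna-ps2 and mt-Nd3 are listed at 0 in both controls.

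**Figure D2:**
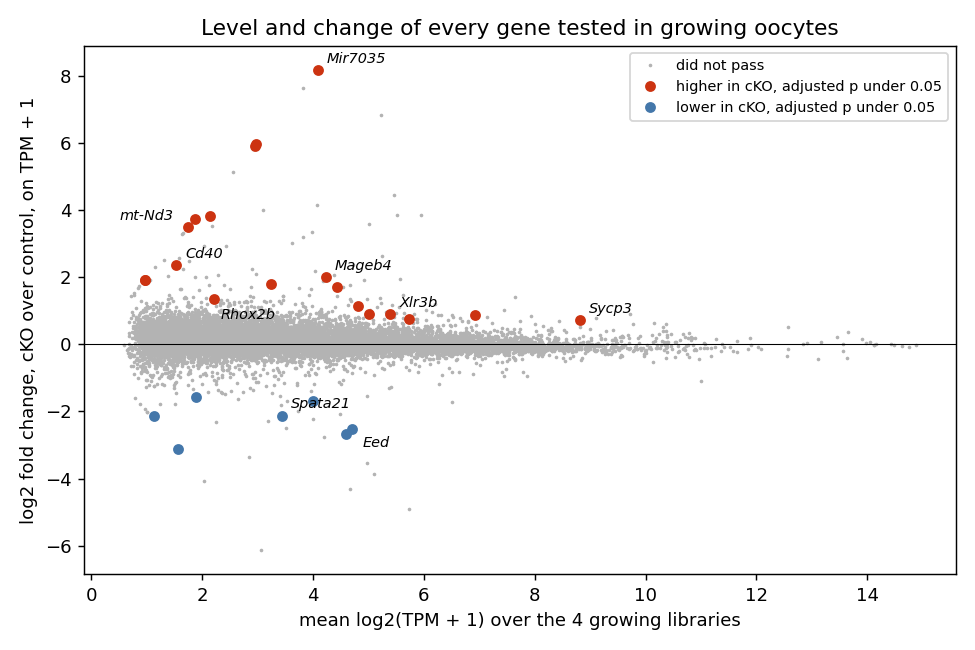
Change against level for the 12252 genes tested, 1 point per gene: the x axis is the mean log2(TPM + 1) of the 4 growing libraries and the y axis the log2 fold change of cKO over control. Red points are the 19 genes that passed as higher and blue points the 7 that passed as lower; many grey points with changes as large did not pass.

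The targeted gene fell. Eed (chr7:89954654-89980983 in GRCm38, minus strand) was at 62.3 and 60.5 TPM in control, against 9.64 and 10.1 TPM in cKO. The cKO libraries were both far below the controls, and the log2 change was -2.52 (SE 0.11; limma, adjusted p = 0.000879). In non-growing oocytes Eed stood at 88.8 and 90.5 TPM in control, against 12.1 and 10.3 TPM in cKO, and the difference between the effects at the 2 stages did not pass (adjusted p = 0.31). The remaining TPM is over the whole gene, and which exons it came from cannot be read from a gene-level table.

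The other PRC2 subunits did not pass. Of 13 listed subunits and cofactors, 11 were tested, Eed alone passed, and the list median was -0.08. Ezh2, the catalytic subunit, was at 149 and 156 TPM in control, against 120 and 106 TPM in cKO, so the groups did not overlap, but its change of -0.43 had an adjusted p of 0.35. Mtf2, which helps PRC2 to reach CpG islands, was at 67.6 and 74.1 TPM in control, against 61.4 and 60.8 TPM in cKO (adjusted p = 0.49). Suz12, the scaffold that joins Eed to Ezh2, changed by -0.27 without overlap and did not pass. None of 23 tested PRC1 subunits and partners passed either. Without overlap, 7 were higher and 1 lower (22.6% and 13.9% of all genes tested were). Bcor was below 1 TPM in both controls, which fixed its direction, and of the other 22, 6 were higher and 1 lower. The median of the 23 was -0.09 with the first cKO library alone and 0.51 with the second.

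Cd40 rose from near 0. It encodes a receptor of the tumour necrosis factor receptor family, known on B cells and antigen-presenting cells, that signals through TRAF adaptors to NF-kappaB. The gene (chr2:165055627-165072948, plus strand) was at 0.42 and 0.15 TPM in control, against 5.47 and 5.64 TPM in cKO. Both cKO libraries were more than 5 TPM above the controls, and the change was 2.36 (SE 0.17; adjusted p = 0.00558). In the non-growing libraries it stayed between 0.03 and 0.14 TPM with overlapping groups, and the effect in growing oocytes differed from that in non-growing ones by 2.35 (SE 0.24; adjusted p = 0.0344). The Cd40 call was kept with every library left out in turn (adjusted p 0.0167 to 0.0274) but not in the fit of the 4 growing libraries alone (adjusted p = 0.0876).

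No other gene of that pathway passed. Of 46 listed receptors, ligands and signalling genes, 19 were tested, and Cd40 was the single call. Without overlap, 10 were higher and 1 lower, against 22.6% higher and 13.9% lower of all genes tested. Of those 10, Cd40, Tnfrsf8, Traf6, Nfkb2 and Relb were below 1 TPM in both controls and entered the test through cKO, so their direction was fixed by the filter. Of the other 14 tested, 5 were higher and 1 lower. The list median was 0.11 with the first cKO library alone and 0.51 with the second. Tnfrsf8, the receptor CD30, was at 0.60 and 0.88 TPM in control, against 1.64 and 4.60 TPM in cKO (change 1.15, adjusted p = 0.35). Tnfrsf19, another receptor of the family, was at 2.10 and 0.91 TPM in control, against 3.07 and 4.09 TPM in cKO (adjusted p = 0.36). These receptors were higher in both cKO libraries but their spread was wide.

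The summed level of immune cell markers was not higher in cKO. Of 20 listed markers, 4 were tested, C1qa, Cd79b, Cd3e and Coro1a were at 0 in all 4 libraries, and the summed level was 28.3 and 28.4 TPM in control, against 19.03 and 25.04 TPM in cKO. C1qb, a complement subunit typical of macrophages, was at 10.7 and 11.1 TPM in control, against 3.54 and 5.55 TPM in cKO, a change of -1.12 that did not pass (adjusted p = 0.18). Of the 4 tested markers, 2 were lower without overlap (13.9% of all genes were) and 2 overlapped. H2-Aa was among those that overlapped, at 8.45 and 6.87 TPM in control, against 7.43 and 10.2 TPM in cKO (change 0.17, adjusted p = 0.71). Granulosa markers and surface epithelium markers had higher sums in cKO, the latter 21.4 and 13.8 TPM in control against 25.4 and 29.6 TPM in cKO. Epcam made up most of that latter sum, at 15.7 and 8.68 TPM in control, against 20.6 and 20.2 TPM in cKO (adjusted p = 0.36). In the non-growing oocyte libraries Epcam was at 195 and 203 TPM in control, against 192 and 232 TPM in cKO. The part of the immune, granulosa and surface epithelium marker lists in the rise of Cd40 was not tested.

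Mageb4, Xlr3b, Rhox2b, Sycp3 and Mael, genes of germ cells and meiosis, also rose. To show what their promoters share and how they differ, the bases before the RefSeq start were read for 4 of them in GRCm38.p6, leaving out bases that lie inside the GENCODE gene. Each runs 5′ to 3′ on the gene's strand, and capitals mark CG dinucleotides, the target of DNA methylation. The first pair belongs to autosomal genes and the second to X-linked genes.
Sycp3 (chr10:88459337-88459568, plus): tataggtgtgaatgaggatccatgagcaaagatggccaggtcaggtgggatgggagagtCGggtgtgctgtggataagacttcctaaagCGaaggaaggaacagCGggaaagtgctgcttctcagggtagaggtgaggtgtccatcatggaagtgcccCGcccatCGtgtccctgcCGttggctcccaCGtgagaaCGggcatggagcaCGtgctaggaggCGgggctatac
Mael (chr1:166238748-166238994, minus): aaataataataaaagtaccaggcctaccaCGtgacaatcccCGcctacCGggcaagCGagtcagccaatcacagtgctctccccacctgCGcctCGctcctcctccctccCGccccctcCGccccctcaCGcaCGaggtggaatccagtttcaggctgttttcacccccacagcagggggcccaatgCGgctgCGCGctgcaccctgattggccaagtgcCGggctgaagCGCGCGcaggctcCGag
Rhox2b (chrX:37411855-37412066, plus): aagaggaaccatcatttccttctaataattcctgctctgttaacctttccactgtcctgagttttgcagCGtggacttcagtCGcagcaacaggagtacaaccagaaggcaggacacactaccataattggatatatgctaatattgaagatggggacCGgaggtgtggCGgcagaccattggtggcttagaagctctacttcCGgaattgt
Xlr3b (chrX:73191929-73192178, plus): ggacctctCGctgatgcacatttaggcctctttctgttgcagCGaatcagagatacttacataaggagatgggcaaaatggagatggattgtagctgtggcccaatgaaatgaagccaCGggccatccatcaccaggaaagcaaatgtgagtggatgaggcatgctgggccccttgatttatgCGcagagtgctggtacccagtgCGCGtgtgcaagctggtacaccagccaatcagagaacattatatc

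In windows of 250 bases before the start, the Sycp3 promoter held 12 CG dinucleotides and Mael 18, above the median of 6 over 32851 RefSeq windows (quartiles 2 and 16). Rhox2b and Xlr3b each held 6, and Mageb4 held 9. Numbers did not follow the direction of change: Pdpn, which rose, and Spata21, which fell, each held 2, and Eed, which fell, held 12. The E-box CACGTG, which reads the same on both strands, occurred 2 times in the Sycp3 window and once in that of Mael, and in 6.02% of all windows. TCCCGC on either strand, the core of E2F-type sites, occurred once in both and in 16.9% of all windows. Neither motif occurred in the Rhox2b or Xlr3b window. Other windows did not divide by chromosome. The autosomal Hormad1 held both motifs and the autosomal Syce1 neither, while the X-linked Xlr held TCCCGC once and the X-linked Mageb4 neither. Of 28 genes looked for, 23 had a window, and where a gene had several the first listed was used.

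Among X-linked germ-cell genes, Mageb4 rose most. It belongs to the MAGE family, best known for expression in testis and tumours. Mageb4 (chrX:86250254-86305093, minus strand) was at 10.6 and 6.53 TPM in control, against 39.9 and 33.4 TPM in cKO, a change of 2.00 (SE 0.21; adjusted p = 0.0254). The groups were far apart. The pseudogene Mageb10-ps lies within the span of Mageb4 on the same strand and followed it, with 13.6 and 8.63 TPM in control, against 39.1 and 36.7 TPM in cKO (adjusted p = 0.033). The sources used here do not give how reads of such neighbours and copies were divided, and the 2 values are not independent. Both calls were lost with trimmed-mean scaling, and that of Mageb4 also without any 1 of the 4 non-growing libraries or without the second cKO growing library (adjusted p up to 0.0943); that of Mageb10-ps was lost in addition without the first cKO growing library (adjusted p = 0.0517).

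Mageb4 was expressed at a much higher level in non-growing oocytes, at 168 and 163 TPM in control, against 211 and 178 TPM in cKO. There its rise was 0.23, and the difference of 1.77 between the stages did not pass (adjusted p = 0.26). Of 28 listed MAGE genes, 7 were tested, 5 were higher without overlap and 1 lower (22.6% and 13.9% of all genes), and 7 others were at 0 in all 4 libraries. Maged2, a widely expressed member, was at 4.61 and 4.26 TPM in control, against 5.11 and 6.79 TPM in cKO (adjusted p = 0.51).

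The Xlr genes are X-linked multicopy relatives of Sycp3. Xlr3b (chrX:73192207-73202930, plus strand) was at 28.0 and 31.5 TPM in control, against 55.7 and 57.6 TPM in cKO. Replicates lay close and the groups apart, and the rise of 0.91 passed (SE 0.09; adjusted p = 0.0253). Xlr, the founding member, was at 4.46 and 4.65 TPM in control, against 15.3 and 10.2 TPM in cKO, a larger change of 1.29 that did not pass (adjusted p = 0.0855). Over the family list, which includes Sycp3, 11 of 13 genes were tested, 2 passed and 10 were higher without overlap (22.6% of all genes were), with a median of 0.71 against 0.08 for all genes. The abundant Xlr3a, Xlr4a, Xlr4b and Xlr4c changed by 0.04 to 0.33, less than the rarer Xlr5b, Xlr3c, Xlr5c and Xlr at 0.89 to 1.29. The median was 0.88 with the first cKO library alone and 0.60 with the second. Slx and Slxl1 were at 0 in all 4 libraries.

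The call of Xlr3b was lost with trimmed-mean scaling (adjusted p = 0.0753) and without any library other than the second control or first cKO growing library (adjusted p up to 0.0948). Xlr3b overlaps Xlr5a on the opposite strand, and the family's copies are nearly alike, so reads may be shared among them.

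Rhox genes form an X-linked cluster of homeobox genes of the reproductive tract and germ line. Of 32 listed, 9 were tested, and in all 9 both cKO libraries lay above both controls (22.6% of all genes did). Rhox2b was the 1 that passed, at 1.83 and 1.99 TPM in control, against 7.01 and 5.72 TPM in cKO (change 1.33, SE 0.16; adjusted p = 0.0401). Rhox2a was at 7.13 and 5.02 TPM in control, against 18.8 and 14.2 TPM in cKO (change 1.31, adjusted p = 0.0787). Rhox5, the founding member of the cluster, was at 0.87 and 0.52 TPM in control, against 3.02 and 3.68 TPM in cKO (change 1.36, adjusted p = 0.0859). These 3 had similar changes from different starting levels. Rhox1, the most abundant member here, was at 34.0 and 29.6 TPM in control, against 49.8 and 49.6 TPM in cKO, and its change of 0.63 did not pass.

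The smallest Rhox change was that of Rhox10, 0.15, and the family median was 1.25 (1.25 and 1.05 with the first and second cKO library alone). Rhox2e, Rhox5 and Rhox7a were below 1 TPM in both controls and passed the level filter only through cKO, so they had to be higher, and both the count of 9 and the median of 1.25 are descriptions that support nothing. Over the other 6 the median was 0.77. Rhox3c, Rhox3f, Rhox3g, Rhox4f, Rhox11 and Rhox12 were at 0 in all 4 libraries. The Rhox2b call was lost with either other scaling and without any library other than the first cKO growing library (adjusted p up to 0.151), and the Rhox2 copies are close enough that reads may be divided among them. In non-growing oocytes Rhox2b had a higher level, 26.5 and 21.6 TPM in control and 62.0 and 64.8 TPM with Eed lost. The effects at both stages were near equal, with a difference of -0.03 (adjusted p = 0.95).

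The X chromosome as a whole differed little from the autosomes. Its 436 tested genes had a median change of 0.06, against 0.08 for 11797 autosomal genes. Without overlap, 26.1% of X-linked and 22.5% of autosomal genes were higher. Calls made up 1.15% of X-linked genes (4 higher, 1 lower) and 0.17% of autosomal genes (14 higher, 6 lower), and the difference between those shares was not tested.

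Sycp3 was the most abundant gene that rose. SYCP3 forms the lateral elements of the synaptonemal complex, which joins homologous chromosomes in meiotic prophase and has been taken apart in oocytes of this age. Sycp3 (chr10:88459569-88473236, plus strand) was at 362 and 344 TPM in control, against 623 and 534 TPM in cKO. Both cKO libraries exceeded both controls, and the change was 0.71 (SE 0.09; adjusted p = 0.0418). The call was lost with trimmed-mean scaling (adjusted p = 0.268) and without any non-growing or control growing library (adjusted p up to 0.173), and kept without either cKO growing library. Non-growing control oocytes held 3392 and 3364 TPM and cKO 4127 and 4024 TPM, so the level in growing cKO oocytes remained far under that of the earlier stage.

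No other gene listed for the synaptonemal complex and chromosome axis passed. Of 14 tested, Sycp3 included, 6 were higher and 0 lower without overlap (22.6% and 13.9% of all genes), the other 8 overlapped, and the median was 0.41 (0.23 and 0.54 with each cKO library alone). Syce1, a central element protein, was at 38.7 and 34.1 TPM in control, against 69.1 and 58.7 TPM in cKO (change 0.79, adjusted p = 0.0715). Hormad1, an axis protein removed at synapsis, was at 2.48 and 3.67 TPM in control, against 6.66 and 7.46 TPM in cKO (change 1.00, adjusted p = 0.12). Terb1, which is not on that list and ties telomeres to the nuclear envelope in meiosis, was at 33.0 and 31.3 TPM in control, against 58.2 and 56.2 TPM in cKO (change 0.81, adjusted p = 0.0694). Replicates of Terb1 lay close together and the groups apart. Sycp2, the partner of SYCP3 in lateral elements, changed by -0.12 with overlap.

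Genes of meiotic recombination did not pass. Of 24 tested, 10 were higher and 1 lower without overlap (22.6% and 13.9% of all genes), and the median was 0.16. In 1 of the 24 both controls were below 1 TPM, which fixed its direction, and of the other 23, 9 were higher and 1 lower. Prr19, needed for crossover formation, was at 1.49 and 0.56 TPM in control, against 2.57 and 3.98 TPM in cKO (adjusted p = 0.26). Tex11, an X-linked crossover factor, was at 8.87 and 7.91 TPM in control, against 10.3 and 10.7 TPM in cKO (adjusted p = 0.44). Ccdc36, which takes part in forming double-strand breaks, changed by 0.58 (adjusted p = 0.44).

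Mael, which acts in the piRNA pathway that silences transposons in germ cells, rose. Mael (chr1:166201201-166238747, minus strand) was at 88.5 and 90.3 TPM in control, against 156 and 172 TPM in cKO, with the groups well apart. Its change was 0.87 (SE 0.09; adjusted p = 0.0229), and the call held with trimmed-mean scaling (adjusted p = 0.0489), but was lost without any library other than the first cKO growing library (adjusted p up to 0.0914). In non-growing oocytes the direction was the opposite, with 574 and 600 TPM in control, against 506 and 554 TPM in cKO, and the difference of 1.01 between stages did not pass (adjusted p = 0.0717). Of 23 tested piRNA genes Mael was the single call; 7 were higher and 3 lower without overlap (22.6% and 13.9% of all genes). Fkbp6, a chaperone of piRNA loading, was at 83.9 and 60.6 TPM in control, against 108 and 106 TPM in cKO (adjusted p = 0.28). Gtsf1, a zinc-finger cofactor of PIWI proteins, went the other way, from 1355 and 1345 TPM in control to 1090.0 and 808 TPM in cKO (change -0.52, adjusted p = 0.28).

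No listed factor of the primordial follicle passed. Of 18 tested, 8 were higher and 2 lower without overlap (22.6% and 13.9% of all genes), and the other 8 overlapped. Sohlh1, which starts oocyte differentiation, was at 65.3 and 35.0 TPM in control, against 96.3 and 127 TPM in cKO (change 1.19, adjusted p = 0.26). Its partner Sohlh2 was at 17.7 and 15.1 TPM in control, against 26.3 and 36.1 TPM in cKO (change 0.88, adjusted p = 0.21). Figla, which turns on zona genes, was at 362 and 302 TPM in control, against 437 and 415 TPM in cKO (adjusted p = 0.32). The list median was 0.11 with the first cKO library alone and 0.29 with the second.

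**Figure D3:**
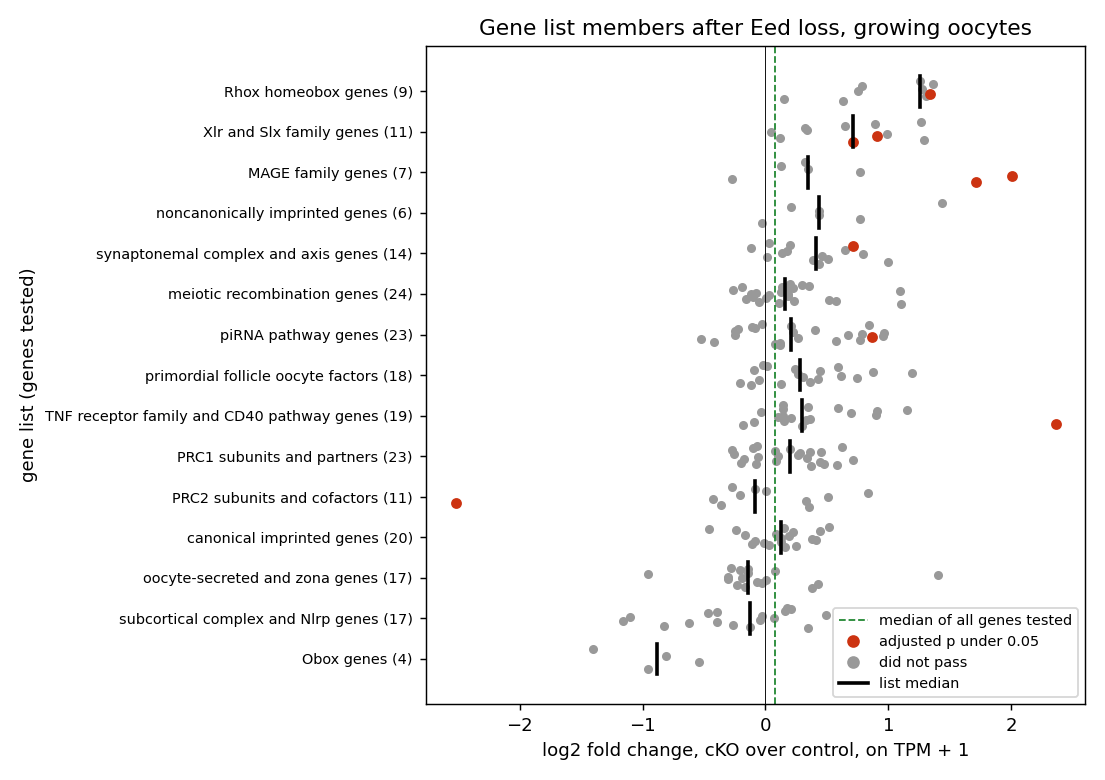
Log2 fold change (cKO over control, on TPM + 1) of each tested member of 15 gene lists, 1 point per gene, with the number tested in brackets. Black bars are list medians, the dashed line is the median of all genes tested (0.08), and red points passed; the Rhox median is 1.25, with 3 of its 9 points from genes below 1 TPM in both controls, and the Obox median is -0.88.

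Pdpn, Slc14a1 and Rsph3b also rose. Pdpn encodes podoplanin, a membrane glycoprotein known from lymphatic vessels and epithelia, and was at 19.1 and 16.9 TPM in control, against 38.3 and 42.8 TPM in cKO (change 1.13, SE 0.12; adjusted p = 0.0253). Endothelial markers overlapped between the groups in their summed level (150.4 and 158 TPM in control, 167 and 157 TPM in cKO). Vwf, at 145 and 149.6 TPM in control, against 159 and 144 TPM in cKO, made up nearly all of that sum. Below the level filter, Emcn was at 0 in both controls and at 0.54 and 0.35 TPM in cKO, and Flt1 at 0.24 and 0.37 TPM in control, against 0.70 and 0.98 TPM in cKO. Esam and Cldn5 were also higher without overlap, at no more than 0.34 TPM. Besides Vwf, Pecam1 was the endothelial marker tested, and its groups overlapped too. It was at 4.15 and 6.74 TPM in control, against 5.26 and 9.58 TPM in cKO (adjusted p = 0.76). The part of these markers in the rise of Pdpn was not tested. Rsph3b, a copy of a gene for a radial spoke protein of cilia, was at 3.81 and 4.35 TPM in control, against 21.2 and 13.2 TPM in cKO (change 1.81, SE 0.21; adjusted p = 0.0359). The cKO libraries were apart from the controls but also differed among themselves. Slc14a1, a urea transporter, was at 21.5 and 23.7 TPM in control, against 43.8 and 41.7 TPM in cKO (change 0.89, SE 0.11; adjusted p = 0.0465).

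These 3 calls depended on the libraries in the fit. That of Pdpn was lost without any library other than the first cKO growing library (adjusted p up to 0.0984), and that of Rsph3b without any non-growing or control growing library and with either other scaling (adjusted p 0.0818 with trimmed-mean scaling). Slc14a1 lost its call whichever of the 8 libraries was left out (adjusted p 0.0524 to 0.168) or with either other scaling. Gm31579, a predicted model that the annotation marks as still to be checked experimentally, rose from 39.3 and 40.9 TPM to 70.9 and 64.3 TPM (change 0.74, adjusted p = 0.0412), and this call held only without the first cKO growing library among the 8 left-out fits.

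Beyond the calls, 8 genes without overlap were higher with the smallest p. Among them, Pabpn1l, an oocyte poly(A)-binding protein for maternal mRNA, had the highest level, at 106 and 140 TPM in control, against 289 and 361 TPM in cKO (change 1.40, adjusted p = 0.0766). It was also the 1 of 17 tested oocyte-secreted, zona and maternal genes that was higher without overlap. Slc38a1, an amino acid transporter, was at 6.35 and 5.08 TPM in control, against 14.1 and 20.6 TPM in cKO (change 1.43, adjusted p = 0.0852). Alad, an enzyme of haem synthesis, was at 55.7 and 60.4 TPM in control, against 98.7 and 114 TPM in cKO (change 0.86, adjusted p = 0.0791). Fabp9, a lipid-binding protein of the testis, was at 0.42 and 1.36 TPM in control, against 6.43 and 6.13 TPM in cKO (change 1.99, adjusted p = 0.0525). None of these 4 passed.

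Slc38a1 belongs to the noncanonically imprinted genes, whose paternal-only expression in the embryo goes back to PRC2 marks set in the oocyte. Of 18 listed, 6 were tested, none passed, and 5 were higher without overlap (22.6% of all genes were) with a median of 0.43 (0.38 and 0.49 with each cKO library alone). Gab1, a signalling adaptor, was at 0.61 and 0.59 TPM in control, against 1.3 and 2.23 TPM in cKO (change 0.77, adjusted p = 0.35). It was tested through cKO alone, which fixed its direction. Prox1, a homeobox factor, was at 1.88 and 1.57 TPM in control, against 2.51 and 2.85 TPM in cKO (change 0.43, adjusted p = 0.45). The other 12 did not reach the level filter. Of 20 tested canonically imprinted genes, which depend on DNA methylation, 5 were higher and 3 lower without overlap (22.6% and 13.9% of all genes), and their median was 0.13.

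Developmental regulators, the classical PRC2 targets, stayed mostly undetected. Of 39 Hox genes, Hoxa7 alone was tested, at 5.50 and 7.60 TPM in control, against 6.0 and 4.98 TPM in cKO, and 15 were at 0 in all 4 libraries. Of 76 other developmental transcription factors 7 were tested, none passed, and 26 were at 0 in all 4 libraries. Without overlap, 5 of the 7 were higher and 1 lower (22.6% and 13.9% of all genes). Gata3 was below 1 TPM in both controls, which fixed its direction, and of the other 6, 4 were higher and 1 lower. Pax6, an eye and brain regulator, was at 2.69 and 1.06 TPM in control, against 3.52 and 5.14 TPM in cKO (adjusted p = 0.36). Isl1, a regulator of heart and motor neurons, was at 3.26 and 7.41 TPM in control, against 10.2 and 7.99 TPM in cKO (adjusted p = 0.48). Meis2 was the most abundant of them, at 292 and 341 TPM in control, against 347 and 345 TPM in cKO (change 0.13). None of the 5 tested CDK inhibitor genes passed, and the groups overlapped in all 5.

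Spata21 also fell. It is named for its expression in spermatogenesis. Spata21 (chr4:141088333-141112760, plus strand) was at 21.1 and 22.2 TPM in control, against 3.69 and 4.74 TPM in cKO. The replicates agreed closely, and the change was -2.12 (SE 0.18; adjusted p = 0.00875). Leaving out either control growing library ended the call, with an adjusted p of at most 0.057. It was lower in non-growing cKO oocytes too, at 2.25 and 2.44 TPM in control, against 0.26 and 0.41 TPM in cKO. None of the other 9 tested Spata genes passed.

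Gm13103, a predicted protein-coding gene on the same chromosome, was at 48.3 and 73.6 TPM in control, against 7.70 and 9.62 TPM in cKO (change -2.66, SE 0.25; adjusted p = 0.0182). The call was lost without either control non-growing library, without the second control growing library and without the second cKO growing library. Rpl21-ps15, a ribosomal protein pseudogene, was at 23.0 and 32.9 TPM in control, against 8.06 and 7.83 TPM in cKO (change -1.67, adjusted p = 0.0265). Its call was lost without any library other than the first control or first cKO growing library (adjusted p up to 0.137). The remaining falls were the predicted models Gm49135, Gm46432 and Gm27640, all below 12 TPM.

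Oocyte-specific homeobox genes of the Obox cluster had lower values in cKO. They encode factors stored in the egg that act in the early embryo. Obox5 was at 223 and 226 TPM in control, against 122 and 133 TPM in cKO (change -0.81, adjusted p = 0.0855). Obox1 was at 283 and 208 TPM in control, against 112 and 139 TPM in cKO (change -0.95, adjusted p = 0.18). Obox7 was at 21.5 and 27.2 TPM in control, against 11.2 and 6.49 TPM in cKO (change -1.40, adjusted p = 0.14). All 4 tested members were lower without overlap (13.9% of all genes tested were), none passed, and the median was -0.88 (-0.96 and -0.77 with each cKO library alone). Obox1, Obox2 and their pseudogenes overlap in the annotation, so reads may be shared.

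Rln3 and the genes of the other maternal lists did not pass. Rln3, a relaxin hormone, was at 327 and 318 TPM in control, against 179 and 154 TPM in cKO (change -0.95, adjusted p = 0.0694). Over 17 tested oocyte-secreted and zona genes, 6 were lower without overlap (13.9% of all genes were) and the median was -0.14. Of 17 tested genes of the subcortical maternal complex and Nlrp family, 7 were lower and 0 higher without overlap (13.9% and 22.6% of all genes), and none passed. Nlrp5, a core member required by the early embryo, was at 2502 and 3571 TPM in control, against 1742 and 1110.0 TPM in cKO (change -1.10, adjusted p = 0.19). Nlrp2 was at 102 and 141 TPM in control, against 67.8 and 66.8 TPM in cKO (change -0.83, adjusted p = 0.23), and Ooep at 557 and 499.8 TPM in control, against 380.4 and 421 TPM in cKO (change -0.40, adjusted p = 0.22). Khdc3, Tle6, Padi6 and Zbed3 were highest in the second cKO library and overlapped between groups.

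Gdpd3, a lysophospholipase D, had lower values that did not pass, at 19.3 and 19.03 TPM in control, against 4.51 and 2.10 TPM in cKO (change -2.29, SE 0.38; adjusted p = 0.11). In non-growing oocytes it stood at 87.5 and 97.1 TPM in control, against 3.86 and 1.33 TPM in cKO. Dhrs7b, a peroxisomal enzyme of ether lipid synthesis, was at 22.1 and 23.4 TPM in control, against 13.8 and 13.9 TPM in cKO (change -0.68, adjusted p = 0.13). Khdc1c was at 69.4 and 88.9 TPM in control, against 41.4 and 46.0 TPM in cKO (adjusted p = 0.18).

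The largest fitted rises belonged to short models and are shown with their sequence because they cannot be read as ordinary genes. Mir7035 is an 82-base microRNA hairpin (chr5:136105522-136105603 in GRCm38, plus strand), and all of its bases lie within annotated exons of Rasa4 on the same strand. It was listed at 0 in both controls and at 454 and 181 TPM in cKO (adjusted p = 0.000879), and no fold is given against a group at 0. Rasa4 itself was at 151 and 166 TPM in control, against 147 and 154 TPM in cKO, so the host did not show the difference. The RefSeq mature sequences, with the seed (bases 2 to 8) in capitals, follow.
mmu-miR-7035-5p (chr5:136105527-136105547, plus): gGCUGGGAgaguggcucagaa
mmu-miR-7035-3p (chr5:136105583-136105603, plus): uCUGAGCCgcugucccugcag

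The 2 arms have different seeds. By position, reads of the hairpin and of these Rasa4 exons cannot be told apart. The sources used here do not say how model and host shared reads. In the PRC1 table the same model was listed at 215 and 192 TPM in control, against 131 and 78.9 TPM in cKO, so growing oocytes with Eed also had values in that range.

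Other short models had like values. Gm27597 (80 bases, all within exons of Rpl19) was listed at 0 in both controls and at 94.1 and 36.2 TPM in cKO, and Gm24135 (101 bases, in an intron of Pdzd2) at 0 and at 98.4 and 37.9 TPM. In Mir7035, Gm27597 and Gm24135 the first cKO library exceeded the second by nearly the same ratio, 2.51, 2.60 and 2.60. Gm22190 and Gm26506 have identical transcripts of 110 bases and identical values (0 in both controls, 2.47 and 3.13 TPM in cKO), so they are 1 measurement and not 2. Models under 200 bases were 6 of the 26 calls and 132 of the 12252 genes tested.

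mt-Nd3, a mitochondrial subunit of respiratory complex I, was also listed at 0 in both controls and at 6.93 and 14.7 TPM in cKO (adjusted p = 0.0265). In non-growing oocytes the order was the reverse, with 6.93 and 13.02 TPM in control and 0 in both cKO libraries. Mitochondrial mRNAs are present in every oocyte, so a value of 0 is a listed value and not a measured absence. mt-Nd4l, another subunit of complex I, was at 0 and 14.9 TPM in control, against 65.6 and 72.9 TPM in cKO and did not pass (adjusted p = 0.3). The 13 tested mitochondrial mRNAs had a median change of 0.03. The pseudogene Pcna-ps2 was listed at 0 in both controls and at 11.6 and 13.04 TPM in cKO (adjusted p = 0.0265). Its call and that of mt-Nd3 were lost without either control growing library and without the second cKO growing library, among others (adjusted p up to 0.15 and 0.13).

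The effect of Eed loss was then compared between growing and non-growing oocytes. The difference of the 2 effects (growing minus non-growing) passed for 9 of 12252 genes (0.0735%), and 1962 had an unadjusted p below 0.05. It was positive in all 9, which does not by itself mean a rise in growing cKO oocytes. In growing oocytes Gm25872 changed by -0.27 and H2bc4 by 0.015, and both were lower in non-growing cKO oocytes. Of the 9, Cd40 was the protein-coding gene that also passed as higher in growing cKO oocytes and had control values above 0. Those values, 0.42 and 0.15 TPM, were below 1 TPM, so the filter fixed the direction of its change in growing oocytes. H2bc4, a histone H2B gene, was at 42.6 and 43.8 TPM in non-growing control and 4.15 and 5.13 TPM in non-growing cKO oocytes, and in growing oocytes at 59.3 and 47.2 TPM in control, against 51.4 and 55.7 TPM in cKO (difference 2.99, SE 0.21; adjusted p = 0.00979). The count of 9 became 1063 without the first cKO growing library, 1 without the first cKO non-growing library, 5 without the second library of either non-growing group and 4 without the first control growing library.

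The Rhox, Xlr and Slx, and Obox lists had like medians at both stages, while the subcortical and Nlrp list and the oocyte-secreted and zona list did not. Rhox genes had a median change of 0.99 in non-growing oocytes (7 of the 9 higher without overlap, against 19.8% of all genes), and Xlr and Slx genes 0.69 (11 of 11). Obox genes had a median of -1.03 (4 of 4 lower, against 39.9%). Subcortical and Nlrp genes were lower by a median of -0.79 in non-growing oocytes (14 of 17) and -0.12 in growing ones, and oocyte-secreted and zona genes by -0.43 (12 of 17) and -0.14. The median of all genes was -0.09 at the earlier and 0.08 at the later stage. None of these families held a gene whose difference between stages passed.

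The libraries labelled PRC1 cKO and their controls, also of growing oocytes, are in a separately normalized table, so its changes are given side by side without a test across tables. In the libraries labelled PRC1 cKO, Ring1 was at 0.01 and 0.02 TPM and at 0 in both controls, as both genotypes lack it. Rnf2, the gene floxed in the control label, had 59.2 and 53.8 TPM in its control libraries and 87.8 and 61.4 TPM in those labelled cKO, so its whole-gene level was not lower there. In this comparison 47.8% of 14941 genes passed, 41.3% as higher and 6.45% as lower, with a median of 0.55. That split depended on scaling: 6176 higher and 964 lower became 3411 and 3111 with trimmed-mean scaling. The 7140 calls became 2953 or 4223 without the first or second control library and 4400 without the first library labelled cKO.

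Of the 19 genes higher after Eed loss, 13 were tested in the PRC1 table. Of these 13, 8 (61.5%) were higher and 1 lower there, against 41.3% and 6.45% of all genes tested in it. These 8 are 0.13% of the genes higher in the libraries labelled PRC1 cKO. Of the 7 lower after Eed loss, 1 was lower (14.3%) and 1 higher there, against 6.45% and 41.3% of all genes. Mageb4, Rhox2b, Sycp3 and Mael were among the genes higher in the libraries labelled PRC1 cKO. Mageb4 went from 20.8 and 36.7 TPM to 612 and 586 TPM (change 4.39, adjusted p = 0.00208), against 2.00 after Eed loss. Rhox2b went from 2.28 and 4.12 TPM to 86.7 and 80.4 TPM (4.37), against 1.33. Sycp3 went from 297 and 350.2 TPM to 1630.0 and 1368 TPM (2.21), against 0.71, and Mael from 117 and 168 TPM to 496 and 373 TPM (1.61), against 0.87. The Rhox median was 4.03 (26 of 27 tested passed as higher), and the Obox median was -3.69 (4 of 4 lower).

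No call was made there for Cd40, Spata21, Terb1, Slc14a1 or Rsph3b. Cd40 stayed at 0.35 to 0.67 TPM in all 4 PRC1 libraries, under the level filter. Spata21 had 51.0 and 51.1 TPM in PRC1 control libraries and 47.7 and 49.9 TPM in those labelled cKO (change -0.06, SE 0.14; adjusted p = 0.73). Terb1 was at 43.5 and 44.4 TPM and at 44.0 and 38.7 TPM (-0.09, adjusted p = 0.66), Slc14a1 differed by -0.49 (adjusted p = 0.24) and Rsph3b by 0.44 (adjusted p = 0.17). Dhrs7b, with lower values after Eed loss, was higher in the libraries labelled PRC1 cKO, from 11.3 and 16.0 TPM to 47.4 and 35.2 TPM (1.53, adjusted p = 0.00843). C1qb was likewise lower without Eed and higher in the libraries labelled PRC1 cKO, at 11.6 and 12.8 TPM against 38.8 and 33.5 TPM (1.49, adjusted p = 0.00416). No test was made of these differences between tables.

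**Figure D4:**
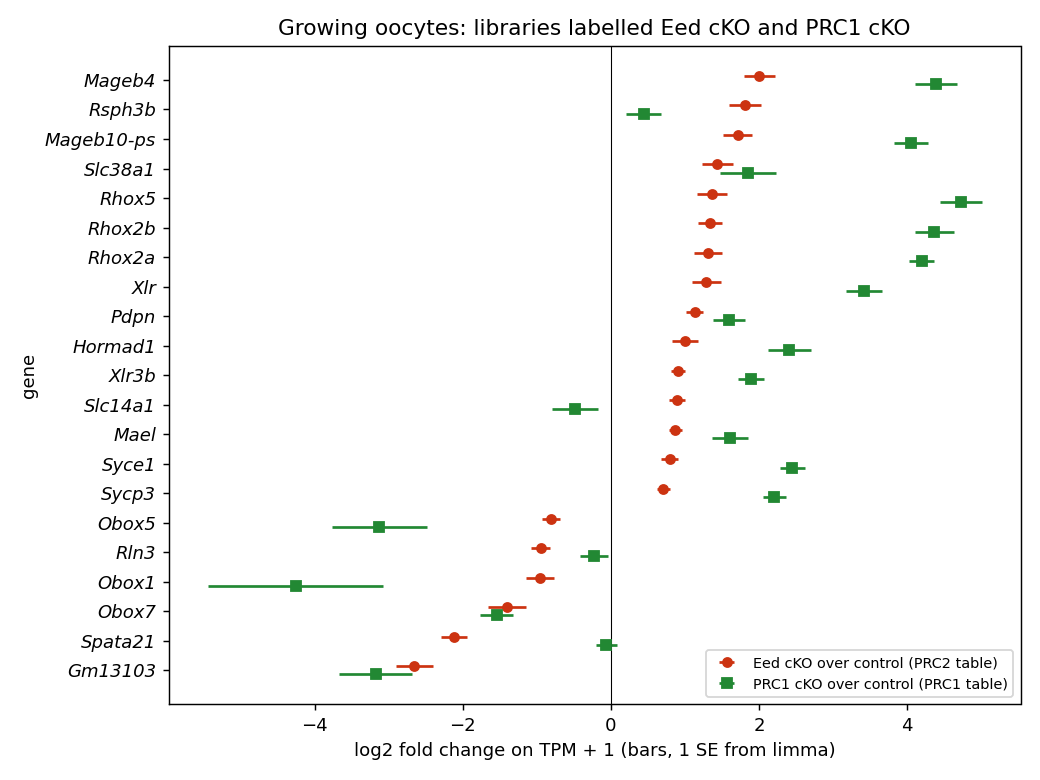
Log2 fold change (on TPM + 1) with 1 SE from limma for named genes tested in both tables, after Eed loss (red circles) and in the libraries labelled PRC1 cKO (green squares). Mageb4 is at 2.00 and 4.39, Sycp3 at 0.71 and 2.21 and Spata21 at -2.12 and -0.06; the tables were normalized separately.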

How the data were processed

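The members, gene lists and rules were chosen with earlier results of these data known. Per the labels' protocols, an RNeasy Plus Micro kit gave the RNA, an NEBNext Single Cell/Low Input kit the libraries and an Illumina HiSeq the paired reads. The authors deposited TPM values in a table of 8 PRC2 libraries and another of 4 PRC1 libraries. The submitters' processing notes name RSEM 1.3.3, Subread 2.0.3, HISAT2, SAMtools, Trim Galore 0.6.10 and the build GRCm38/mm10. Not given in the sources used here are the program behind the TPM, strand use and the rule for reads that match several places. TPM has the same sum in every library, so abundant models move all others, and it keeps no depth, so no count test was made.

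Values were taken as log2(TPM + 1) for genes at 1 TPM or more in at least 2 growing libraries. R 4.3.3 with limma 3.58.1 gave the fit (eBayes with trend, two-sided), with the 8 PRC2 libraries in 4 groups and no covariate; the 4 PRC1 libraries were fitted separately. A call is a Benjamini-Hochberg adjusted p under 0.05 over all genes tested. The fit was also run on simulated data with normal noise, no difference between stages, and changes planted only in genes of higher level. That run does not cover rare genes or models listed at 0 in a whole group. Gene classes and positions came from GENCODE vM21, promoter and microRNA sequences from RefSeq tables of GRCm38.p6.

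Named genes were Eed, Cd40, Mageb4 and Spata21; every called gene with a symbol that is not a predicted model; the 8 uncalled genes of smallest p in each direction whose groups did not overlap and whose higher group had 5 TPM or more; up to 3 members of a list by p; the 5 genes of smallest p for the difference of stages; and the 3 most abundant called predicted models. Other genes were named after their values were seen. Alternatives were other pseudocounts, filters, scalings, variance settings, a replicate block and leaving out each library.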

Additional observations from a re-analysis of the deposited data

Results flagged for a closer look

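For 9 genes the effect of Eed loss differed between growing and non-growing oocytes by limma's test of the difference itself. Values are TPM in the 2 control and then the 2 cKO libraries. Cd40 was at 0.42, 0.15, 5.47 and 5.64 in growing and at most 0.14 in non-growing oocytes (adjusted p = 0.0344). H2bc4 was at 59.3, 47.2, 51.4 and 55.7 in growing and 42.6, 43.8, 4.15 and 5.13 in non-growing oocytes (adjusted p = 0.00979). Ccdc69, a coiled-coil protein gene, was at 604, 655, 604 and 666 in growing and 17.0, 16.2, 6.09 and 6.03 in non-growing oocytes (adjusted p = 0.0344).

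mt-Nd3 was listed at 0, 0, 6.93 and 14.7 in growing and 6.93, 13.02, 0 and 0 in non-growing oocytes (adjusted p = 0.0125). The other 5 were microRNA-class models of about 100 bases. Mir7035 (adjusted p = 0.0093), Gm24135 (adjusted p = 0.0313) and Gm27597 (adjusted p = 0.0313) were listed at 0 in all libraries except the 2 growing cKO ones. Gm25872 was at 1134, 1109, 813 and 1066 in growing and 37.1, 48.2, 0 and 0 in non-growing oocytes (adjusted p = 0.00129). Gm25959 was at 963, 1035, 1180.0 and 1259 in growing and 43.8, 17.1, 0 and 0 in non-growing oocytes (adjusted p = 0.0344).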

How the results depend on the processing

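The comparison of growing oocytes gave 26 calls. It gave 50 with no filter beyond a value above 0 in 1 library, 11 with only the 4 growing libraries fitted, 16 with protein-coding genes only (chosen after seeing the data), and 12 to 169 with 1 library left out; the other 10 alternatives that kept the libraries gave 20 to 34. Of the 19 called genes named, 15 kept their call with quantile normalization, 11 with trimmed-mean scaling, 15 with the replicate block and 4 with only the 4 growing libraries. Those last 4 were Eed, Mir7035, Gm24135 and Pcna-ps2, and all but Eed were listed at 0 in both control growing libraries. The rest had an adjusted p of 0.0876 to 0.353 in that fit. The replicate block, with 25 calls of which 21 were among the 26, rests on numbers that do not pair the samples: the first replicates' deviations correlated at -0.04 between growing control and cKO and at -0.01 to 0.29 between the other groups.

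The difference between stages gave 9 genes. It gave 4 with a pseudocount of 5 TPM, with quantile normalization, with the replicate block and with protein-coding genes only, 21 with no filter, 14 with the filter over all 8 libraries and 1 to 1063 with 1 library left out. The PRC1 comparison gave 7140 genes, 4583 with a 2-fold minimum and 2953 to 6390 with 1 library left out. H2bc4 in growing oocytes changed by 0.015, and by -0.043 with quantile normalization, -0.11 with trimmed-mean scaling and -0.15 to 0.18 with 1 library left out. Vwf differed by 0.038, and by -0.087 with trimmed-mean scaling and -0.034 to 0.11 with 1 library left out. The causes were not tested. With 2 libraries per group and no depth, small changes of rare transcripts were not detectable. Some larger changes did not pass either, among them those of Gdpd3 (-2.29) and of the abundant Nlrp5 (-1.10, with 2502 and 3571 TPM in control growing libraries). A gene that did not pass is therefore not shown to be unchanged.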

Other observations

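On chromosome 4, 4 of the 26 called genes (Spata21, Pdpn, Gm13103 and the pseudogene Gm13237) lay within 5.48 Mb, between 141088333 and 146565087 in GRCm38. Of 35 genes tested there 11.4% were called, against 0.212% of all genes tested. Without overlap, 19 were higher and 6 lower (22.6% and 13.9% of all genes), and the median change was 0.41 against 0.08. The region was looked at after its calls were seen, and no test was made. Its edges were set by the first and last of those calls, so the share called is high by construction.

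Near Rsph3b on chromosome 17, copies of the same genes had unlike values. Rsph3b was at 3.81 and 4.35 TPM in control, against 21.2 and 13.2 TPM in cKO, while Rsph3a was at 120 and 148 TPM in control, against 143 and 121 TPM in cKO. Tmem181b-ps was at 1.04 and 1.77 TPM in control, against 11.8 and 6.83 TPM in cKO, and Tmem181a at 11.7 and 11.6 TPM in control, against 9.57 and 12.3 TPM in cKO. Dynlt1b was at 44.7 and 45.3 TPM in control, against 141 and 61.2 TPM in cKO, and Dynlt1a at 8.70 and 8.08 TPM in control, against 7.57 and 7.17 TPM in cKO. These copies were chosen after their values were seen, and reads may be divided among them.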
